A study of Mus musculus with 48 samples.

Results

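Sesquiterpene lactones (STL) and chlorogenic acids (CGA) are the bitter terpenoids and the phenolic esters of chicory root, and the comparison described here set the caecum of mice given STL against that of mice given CGA. Its members were the 3 caecum arrays of each diet, 6 of the 16 caecum arrays and of 48 arrays in the series, which also covers liver and ileum enterocytes. All were BALB/cOlaHsd mice on standard chow, gavaged daily with 500 µL for 30 days from an age of 8 weeks, with 1 array per mouse. Both diets ran in parallel with the same control group, Ctr2 (2 caecum arrays), which cancels when STL is set against CGA. In the fit, the other caecum groups, a chicory decoction (Chic), fructose (Fru) and their control Ctr1, served only to estimate the spread between mice. Their arrays also took part in the normalisation, the choice of probe for each gene and the gene means over the 16 arrays. The dose of each compound was matched to its amount in the chicory decoction and not to the other compound, so the contrast compares the compounds at unequal masses. The sample tags give female for the CGA and STL mice where the source names and the methods give male. The labels give water and the methods DMSO as the diluent of Ctr2, and the methods name colon where they describe RNA extraction and caecum where they describe the arrays.

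The caecum is a hindgut pouch in which microbes ferment what the small intestine has not absorbed, and its wall holds absorptive colonocytes, mucus-making goblet cells, smooth muscle and immune cells. Interferon-stimulated genes encode sensors, signalling factors and effectors that cells switch on when interferon binds its receptor, and the gut epithelium keeps a low tone of them in contact with its microbes. Ribosomal protein genes encode the protein part of the large and the small ribosomal subunit and are among the most abundant transcripts of any tissue.

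The array intensities were log2-transformed and quantile-normalised over the 16 caecum arrays, and a level is given on that log2 scale throughout. The table held part of the array, and 3779 genes could be tested. The deposited array medians ran from 186 to 1687, and 4 arrays lay more than 0.5 (log2) below the median of the 16, among them CGA 2 and STL 3. Pearson correlations across genes were 0.93 to 0.96 within CGA, 0.88 to 0.96 within STL and 0.90 to 0.97 between the groups, and STL 3 took part in the lowest. Defining genes of the large bowel were bright in every CGA and STL mouse. Car1, a carbonic anhydrase of surface colonocytes, lay between 13.80 and 15.54, Aqp8, a water channel, between 14.10 and 14.39, and Zg16, a goblet cell lectin, between 14.48 and 14.99. In bulk tissue, fewer cells of a type and less RNA per cell cannot be told apart. Of the sex-linked transcripts, the Y-linked Eif2s3y lay between 7.57 and 9.40 over the 16 arrays, and its probe may also read the X-linked copy.

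No gene passed the adjusted threshold between STL and CGA. Of 3779 genes tested with limma, 0 (0%) passed a Benjamini-Hochberg adjusted p of 0.05, and the smallest adjusted p was 1.00. An unadjusted p under 0.05 was reached by 41 genes (1.08%), 19 higher in STL (0.503%) and 22 lower (0.582%). That is fewer than the 189 genes that 5% of the tests would give, and why was not tested. Differences were small for most genes. From the 5th to the 95th percentile they ran from -0.32 to 0.33, 48.5% were above 0, and 39 genes (1.03%) exceeded 1 in size, a 2-fold change. The precision rested on 3 mice a group and on a spread estimated over all caecum groups. The median standard error was 0.24 and the median half-width of the 95% interval was 0.51. For 3220 genes (85.2%) the whole interval lay within 1 log2 unit of 0. For the other genes the interval reached past a 2-fold difference in one direction or the other. All 3 STL mice lay above all 3 CGA mice for 73 genes (1.93%) and below them for 104 (2.75%).

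**Figure D1:**
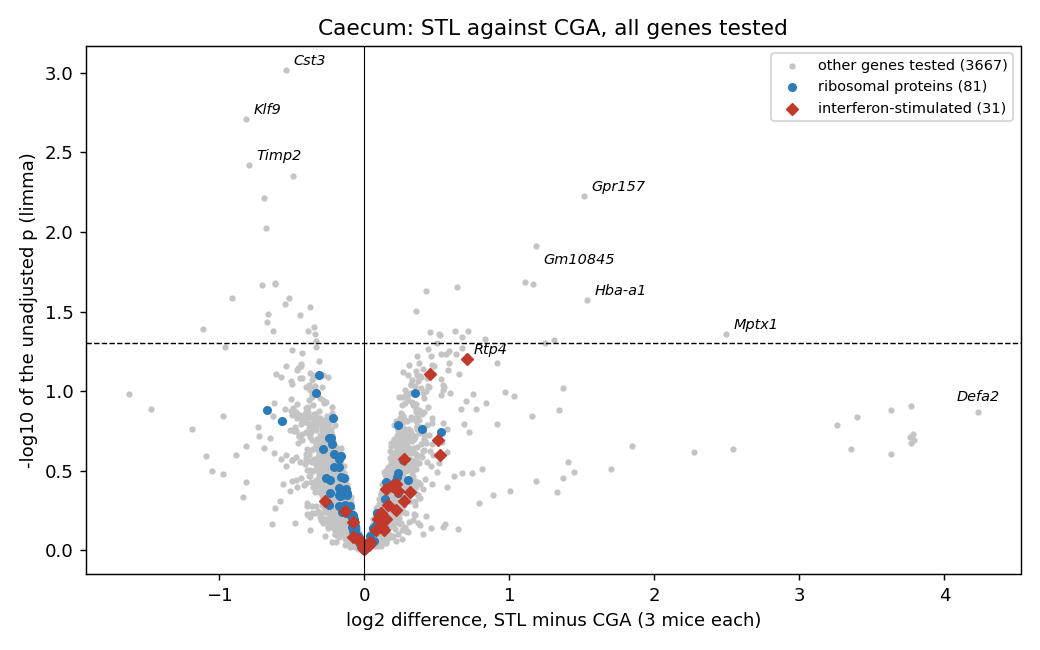
Each point is 1 of the 3779 genes tested, with the log2 difference of STL minus CGA on the x axis and -log10 of the unadjusted limma p on the y axis; the dashed line marks the unadjusted threshold of 0.05. The 31 interferon-stimulated genes (diamonds) all lie under the line, as do the 81 ribosomal protein genes, and the points far to the right at low height are alpha-defensins such as Defa2 (4.23), whose levels differed widely between mice of one group.

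The genes with the largest moderated statistic were, on the lower side, an inhibitor of proteases and several regulators. Cst3, which encodes cystatin C, a secreted inhibitor of cysteine proteases, had the smallest p of all genes. Its level was 11.60, 11.47 and 11.71 in the CGA mice and 10.99, 11.07 and 11.10 in the STL mice. The groups did not overlap, and the difference was -0.54 (standard error 0.13, 95% interval -0.82 to -0.26, unadjusted p = 0.000958, adjusted p = 1.00 from limma). The Ctr2 mice, at 11.78 and 11.70, lay with the CGA mice. Timp2, an inhibitor of matrix metalloproteinases, was 10.70, 10.92 and 11.19 under CGA and 10.01, 10.08 and 10.34 under STL, a difference of -0.79 (standard error 0.23). Here the 2 Ctr2 mice fell on both sides, at 10.31 and 11.09.

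Klf9, a Krüppel-like transcription factor induced by glucocorticoids, was 9.42, 9.51 and 9.80 in the CGA mice and 8.49, 8.74 and 9.06 in the STL mice. The difference was -0.82 (standard error 0.21, 95% interval -1.27 to -0.36), with no overlap. Of the Ctr2 mice, one lay within the STL range, at 8.62, and the other between the groups, at 9.30. Max, the dimerisation partner of Myc, was 10.39, 10.40 and 10.05 under CGA and 9.34, 9.75 and 9.72 under STL, a difference of -0.68 (standard error 0.22). Both Ctr2 mice, at 9.12 and 9.51, lay near the STL mice for Max. Pde4c, a phosphodiesterase that degrades cyclic AMP, differed by -0.49 (standard error 0.14), and Parm1, a mucin-like membrane protein, by -0.69 (standard error 0.21). Rbm47, an RNA-binding protein of the epithelium, differed by -0.91 (standard error 0.36), and Gabarapl1, a protein of autophagosomes, differed by -0.55 (standard error 0.22). In these 4 genes the groups did not overlap either. The list of 12 was completed by Phyhd1 (-0.71), C230096K16Rik (-0.62), Aoc2, a copper amine oxidase (-0.62), and Atf5, a stress-response transcription factor (-0.52). Aoc2 and Atf5 overlapped between the groups.

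On the higher side the first gene was Gpr157, a G protein-coupled receptor. Its level was 8.21, 9.40 and 8.40 in the CGA mice and 9.69, 10.38 and 10.50 in the STL mice, with Ctr2 at 8.69 and 7.65. The difference was 1.52 (standard error 0.46, 95% interval 0.52 to 2.52, unadjusted p = 0.00594), 2.86-fold on the linear scale, and all 3 STL mice lay above all CGA and Ctr2 mice. Gm10845, a predicted gene, was 12.56, 12.66 and 12.72 under CGA and 14.10, 13.58 and 13.80 under STL. Its brighter probe differed by 1.18 (standard error 0.41) and its other probe by 0.46. Noct encodes nocturnin, a phosphatase with a daily rhythm, and was 11.74, 12.15 and 12.19 under CGA and 13.76, 13.05 and 12.76 under STL. The brighter probe of Noct differed by 1.16 (standard error 0.45) and the other by -0.13, so the probes disagree.

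Oas1f belongs to the oligoadenylate synthetases, enzymes that sense double-stranded RNA. Its level was 8.67, 8.42 and 7.69 in the CGA mice and 8.74, 9.82 and 9.55 in the STL mice, a difference of 1.11 (standard error 0.42). The groups were separated narrowly, at STL 1 and CGA 1, and one Ctr2 mouse, at 9.28, lay within the STL range. Ccnd1, which encodes cyclin D1, differed by 0.43 (standard error 0.17), and all STL mice lay above all CGA mice while both Ctr2 mice, at 9.38 and 9.61, were higher still. Scd2, a stearoyl-CoA desaturase, was 8.26, 8.74 and 8.08 under CGA and 9.13, 9.16 and 8.93 under STL, with Ctr2 at 9.59 and 9.11. The other leading genes were Spag7 (0.62), Chchd2 (0.45) and Dnajc30 (0.35), the latter pair mitochondrial proteins, all without overlap, and Cox6b1 (0.64), Hba-a1 (1.54) and Mptx1, which overlapped.

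Only 6 of the 3779 genes (0.159%) both exceeded 1 in size and did not overlap between the groups. Of these, 4 are the leading genes Gpr157, Gm10845, Noct and Oas1f. The other 2 were singled out by this count after their values were seen. BC094435 was 8.51, 9.91 and 10.33 under CGA and 11.41, 10.68 and 10.40 under STL. Marchf1, a ubiquitin ligase of immune cells, was 7.27, 7.58 and 6.99 under CGA and 6.71, 5.51 and 6.05 under STL, and its interval ran from -2.96 to 0.59.

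**Figure D2:**
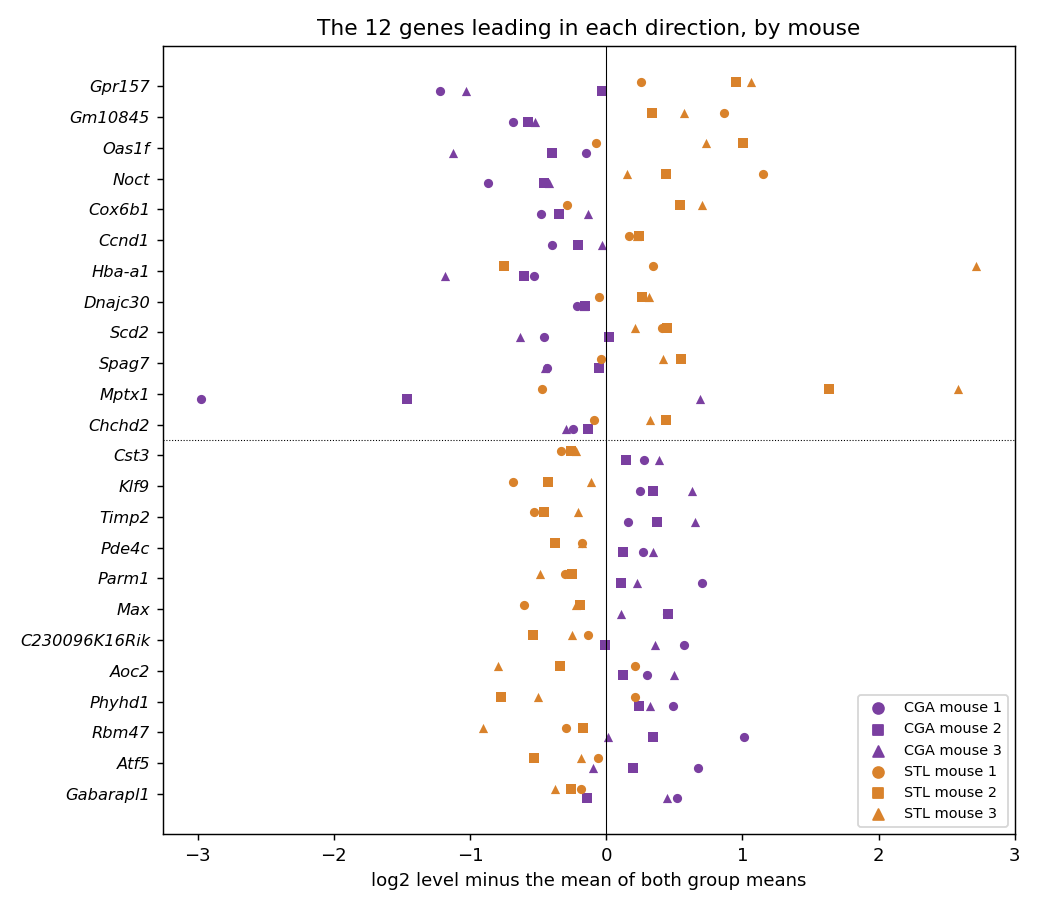
For each of the 24 leading genes, the 12 higher in STL above the dotted line and the 12 lower below it, the x axis gives each mouse's log2 level minus the mean of both group means; colour marks the diet and shape the mouse. Most leading differences are under 1 log2 unit, and for Hba-a1 STL 3 (14.70) lies far to the right, with STL 1 (12.32) also above all CGA mice.

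Of 107 interferon-stimulated genes listed, 31 were measured, and 0 of them passed the test in either direction, as was the case for 0% of all genes. None reached an unadjusted p under 0.05. The STL mean was higher for 22 of the 31 (71.0%, against 48.5% of all genes) and lower for 9, with a median difference of 0.12 against -0.01 over all genes. Relative to each gene's mean over the 16 arrays, the list median was 0.02, -0.13 and -0.11 in the CGA mice. It was 0.13, -0.13 and 0.06 in the STL mice and -0.15 and 0.08 in the Ctr2 mice. STL 2 thus lay between CGA 2 and CGA 3, and only STL 1 and STL 3 lay above all CGA mice. The differences ran from -0.27 to 0.71. All 3 STL mice lay above all 3 CGA mice in 2 of the 31, beside 1.93% of all genes, and below in 0, beside 2.75%. For 23 of the 31 the 95% interval lay within 1 log2 unit of 0.

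Among the effectors, Rtp4, a receptor transporter protein that restricts viral replication, had the largest difference. Its level was 8.38, 8.39 and 8.19 in the CGA mice and 9.62, 8.77 and 8.69 in the STL mice, with Ctr2 at 8.22 and 7.98. All STL mice lay above all others, and the difference was 0.71 (standard error 0.35, 95% interval -0.04 to 1.46, unadjusted p = 0.063). Isg15, a ubiquitin-like modifier, was 9.54, 8.99 and 8.35 under CGA and 9.55, 9.16 and 9.73 under STL. The groups overlapped, since STL 2 lay below CGA 1, and the difference was 0.52 (standard error 0.43). Ifitm1, a membrane protein that blocks viral entry, had the lowest value of the list, at -0.27 (standard error 0.38).

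Among the sensors of nucleic acids, Zbp1, which binds left-handed double-stranded nucleic acid, was at most 7.84 under CGA and 8.13, 7.95 and 8.49 under STL. The difference was 0.51 (standard error 0.38) without overlap, and both Ctr2 mice, at 8.10 and 8.13, lay within the STL range. Oas1a was 11.09, 10.68 and 10.63 under CGA and 11.52, 11.22 and 11.02 under STL, a difference of 0.45 (standard error 0.24) in which CGA 1 lay above STL 3. Its other probe differed by 0.67. Oas1b, of the same family, differed by -0.03 (standard error 0.17) and its other probe by -0.32. Oas1a and Oas1f are close paralogs and their probes may share signal. Ifih1, the RNA sensor MDA5, differed by 0.19 (standard error 0.21) and Oasl1, an oligoadenylate synthetase-like protein, by 0.27 (standard error 0.38). Among the signalling factors, Irf9 differed by 0.27 (standard error 0.23), Irf1 by -0.13 (standard error 0.23) and Irf8 by -0.02. Of the immunity-related GTPases, Igtp differed by 0.22 (standard error 0.37), Irgm2 by 0.16 (standard error 0.24) and Ifi47 by -0.01. The groups overlapped in Oas1b and in every gene named here from Ifih1 on.

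**Figure D3:**
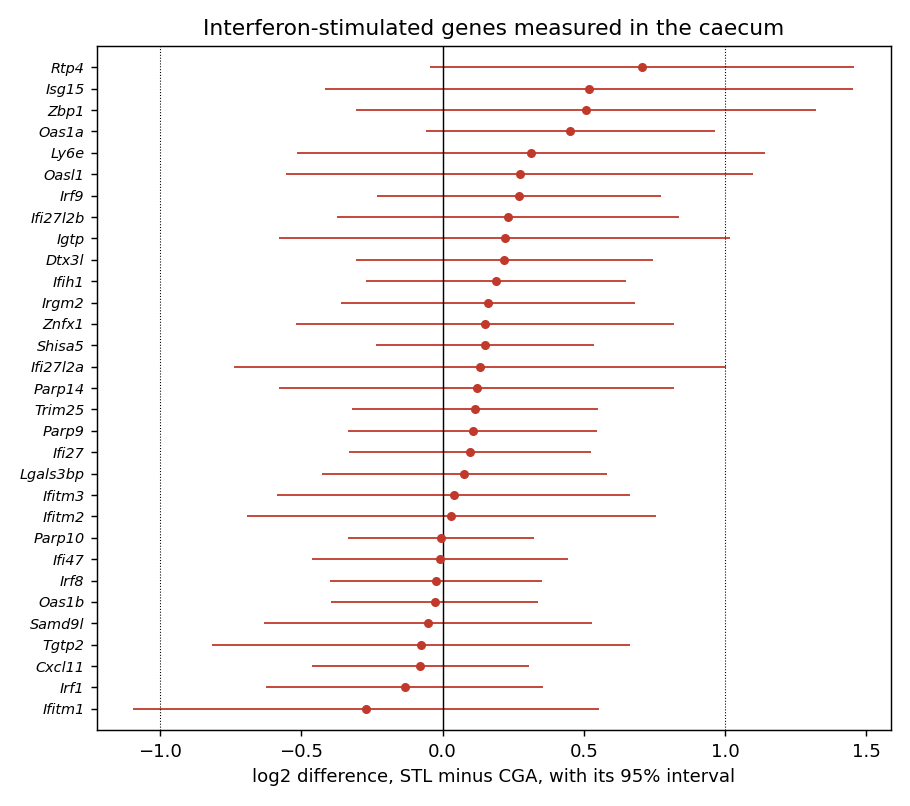
Points give the log2 difference of STL minus CGA for the 31 interferon-stimulated genes measured, and bars its 95% interval from the limma fit (3 mice a group). Every interval holds 0, from Rtp4 (0.71) at the top to Ifitm1 (-0.27) at the bottom; the dotted lines mark 1 log2 unit on either side.

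The interferon-stimulated response element is the promoter motif that the factor ISGF3 and other interferon regulatory factors bind, and its core can be written GAAANNGAAA. The core was searched on both strands of the 250 bases before the annotated start, in RefSeq promoters of build GRCm38.p6. A promoter was listed for 20 of the 31 measured interferon-stimulated genes, and 6 of these (30%) held the core, against 3.46% of 27025 genes in the promoter table, 3.54% of the 2997 tested genes with a promoter and 6 of 60 ribosomal protein genes (10%). The last 150 bases before the start are shown for 4 of the 6, chosen to span the differences measured, with the core in capitals and overlapping cores run together. Isg15 lies at chr4:156200819-156200968 on the minus strand, Oas1a at chr5:120907526-120907675 on the minus strand, Igtp at chr11:58199406-58199555 on the plus strand and Tgtp2 at chr11:49064213-49064362 on the minus strand, each printed in the direction of its transcription.
Isg15: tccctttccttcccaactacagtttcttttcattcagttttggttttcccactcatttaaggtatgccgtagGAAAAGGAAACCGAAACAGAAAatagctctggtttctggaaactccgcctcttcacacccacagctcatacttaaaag
Oas1a: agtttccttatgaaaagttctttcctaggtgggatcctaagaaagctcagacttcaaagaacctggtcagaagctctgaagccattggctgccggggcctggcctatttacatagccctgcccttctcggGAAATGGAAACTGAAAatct
Igtp: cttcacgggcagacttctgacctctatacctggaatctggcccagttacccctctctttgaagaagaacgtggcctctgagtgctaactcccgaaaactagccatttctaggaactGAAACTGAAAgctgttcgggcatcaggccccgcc
Tgtp2: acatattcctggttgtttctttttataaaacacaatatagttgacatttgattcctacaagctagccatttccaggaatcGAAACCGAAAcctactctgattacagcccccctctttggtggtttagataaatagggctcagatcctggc
Isg15 held 3 overlapping cores and Oas1a 2. The differences between STL and CGA of the 6 genes with the core were 0.52 for Isg15, 0.45 for Oas1a, 0.22 for Igtp, 0.16 for Irgm2, 0.03 for Ifitm2, a membrane protein related to Ifitm1, and -0.08 for Tgtp2, an interferon-induced GTPase. Those of the listed genes without it ran from -0.27 for Ifitm1 to 0.27 for Oasl1, so the ranges overlapped. A match is a run of letters and was not tested as a binding site.

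Of 85 cytosolic ribosomal protein genes listed, 81 were measured, and 0 passed the test in either direction, beside 0% of all genes. None reached an unadjusted p under 0.05. The STL mean was lower for 54 of the 81 and higher for 27 (33.3%, against 48.5% of all genes), with a median difference of -0.08 against -0.01. The subunits gave near-equal medians. Of 48 genes of the large subunit 31 were lower (median -0.08), and of 33 genes of the small subunit 23 were lower (median -0.07). Relative to each gene's mean over the 16 arrays, the median of the 81 genes was 0.05, 0.02 and -0.06 in the CGA mice. It was -0.05, -0.06 and -0.05 in the STL mice. CGA 3 thus lay with the STL mice, and only CGA 1 and CGA 2 lay above them. The differences ran from -0.67 to 0.53, and in 77 of the 81 the 95% interval lay within 1 log2 unit of 0, with a median half-width of 0.42 against 0.51 over all genes. All 3 STL mice lay below all 3 CGA mice for 5 of the 81, beside 2.75% of all genes, and above them for 1, beside 1.93%.

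In the large subunit, Rpl24 was 13.45, 13.35 and 13.01 in the CGA mice and 12.82, 12.93 and 13.11 in the STL mice. The difference was -0.31 (standard error 0.17, 95% interval -0.67 to 0.04), its other probe gave -0.27, and the groups overlapped through STL 3. Rplp1, a protein of the stalk that recruits elongation factors, differed by -0.33 (standard error 0.19) and its other probe by -0.30. Rpl19 was the furthest to the other side, at 13.72, 14.84 and 14.59 under STL against 14.01, 14.31 and 13.63 under CGA, a difference of 0.40 (standard error 0.28), with its other probe at -0.02. Without overlap, Rpl37a differed by -0.18, Rpl39 by -0.21 and Rpl36a by -0.24.

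In the small subunit, Rps15a had the lowest difference, with levels of 13.76, 12.83 and 12.84 under CGA and 13.21 and 12.21 in STL 1 and STL 2, with STL 3 lowest. The difference was -0.67 (standard error 0.42), the groups overlapped through STL 1, and its other probe gave -0.22. Rps6, the subunit protein phosphorylated downstream of mTOR, was 12.84, 12.84 and 12.61 under CGA and 13.09, 13.73 and 13.05 under STL. The groups did not overlap, the difference was 0.53 (standard error 0.37), and the Ctr2 mice lay at 13.67 and 12.60. Rps10 was 14.51, 14.36 and 14.43 under CGA and 14.24, 14.32 and 14.07 under STL, a difference of -0.22 (standard error 0.14) without overlap, and Rps28 differed by -0.17 (standard error 0.16), also without overlap. Rps15 differed by 0.35 (standard error 0.20) in its brightest probe and by -0.15 and -0.06 in the others. Ribosomal protein genes have many processed pseudogenes, so probes of one gene can read different sets of copies.

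**Figure D4:**
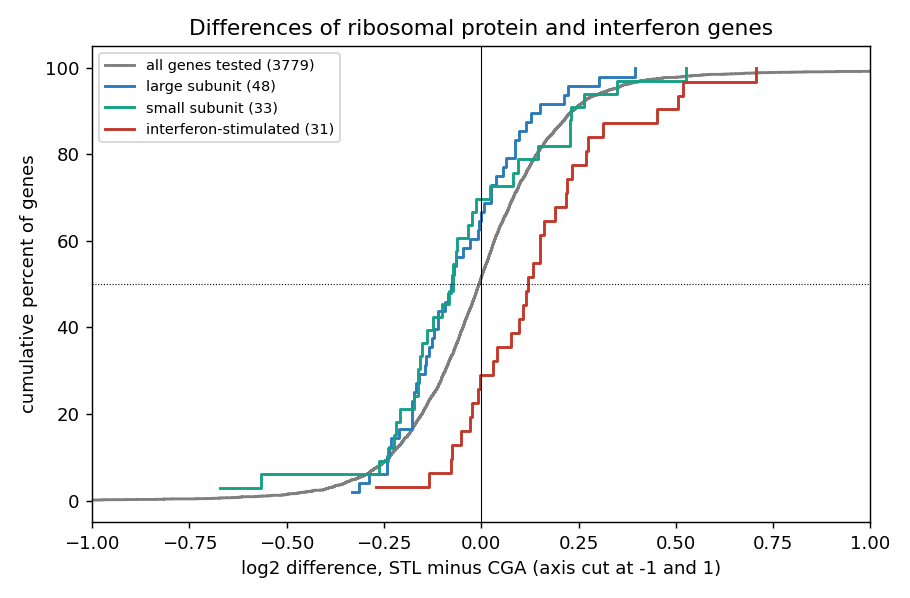
The x axis gives the log2 difference of STL minus CGA and the y axis the cumulative percent of genes at or below it, for all 3779 genes tested, the 48 large-subunit and 33 small-subunit ribosomal protein genes and the 31 interferon-stimulated genes; the few genes beyond 1 log2 unit are off the axis. The ribosomal curves cross 50% at -0.08 and -0.07 and the interferon curve at 0.12, against -0.01 for all genes.

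Other gene groups were described by the same counts, and in none did a gene pass the test. In major histocompatibility class I and peptide loading, 11 of 20 measured genes were higher in STL (median 0.04). H2-T23, a non-classical class I molecule, ran from 11.37 to 12.06 under CGA and was 12.21, 12.26 and 12.53 under STL, a difference of 0.52 (standard error 0.23, unadjusted p = 0.0443), with Ctr2 at 12.35 and 12.29 within the STL range. H2-Q7 did not overlap either (0.35, standard error 0.21), and class I genes are alike enough for probes to share signal. Of 39 genes of the NRF2 response and glutathione, 22 were higher (median 0.11). Gstp1, a glutathione transferase, was 9.39, 9.90 and 9.81 under CGA and 10.45, 10.06 and 9.91 under STL, a difference of 0.44 (standard error 0.21), while its dimmer probe gave -0.15. G6pdx, which supplies NADPH, differed by 0.92 (standard error 0.46), and CGA 1 at 6.89 set that value, since the other CGA mice lay at 9.26 and 9.29 and the STL mice between 9.32 and 9.46.

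Of 79 respiratory chain genes, 35 were higher and 44 lower (median -0.03). Cox6b1, a subunit of cytochrome c oxidase, led the list, at up to 9.35 under CGA and 9.19, 10.02 and 10.19 under STL, and Atp5g3, a subunit of the ATP synthase ring, differed by 0.59 (standard error 0.34). In both, STL 2 and STL 3 were high and STL 1 lay within the CGA range. Of 14 sterol synthesis genes, 10 were higher (median 0.07), among them Hmgcs1, the synthase that makes HMG-CoA, at 0.66 (standard error 0.34), and Tm7sf2, a sterol reductase, at 0.46 (standard error 0.22). Of 21 apoptosis genes, 16 were higher (76.2%, median 0.10). Casp9, the initiator caspase of the mitochondrial route, was 8.51, 8.35 and 8.42 under CGA and 8.66, 8.71 and 8.64 under STL, a difference of 0.24 (standard error 0.16) without overlap, and Bak1, a pore-forming Bcl-2 protein, differed by 0.39 (standard error 0.25). Of 16 NF-kappaB targets and cytokines, 11 were lower (median -0.07), and Ccl8, a monocyte chemokine, was the 1 gene of the 16 without overlap, at -0.34 (standard error 0.19), beside 2.75% of all genes with STL below CGA. Of 6 clock genes, 4 were lower, with Nr1d2, a nuclear receptor repressor of the clock, at -0.62 (standard error 0.37) beside Noct on the other side.

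The mitochondrial ribosome (53 genes, median -0.00), the proteasome (30 genes, 0.02), translation factors (36 genes, -0.02), chaperones (33 genes, 0.02), xenobiotic enzymes (36 genes, 0.02), glycolysis and fructose enzymes (19 genes, -0.01) and junctions, keratins and mucus (23 genes, 0.01) had medians near 0. Each of these lists also had 0 genes that passed. No bitter taste receptor, the class through which sesquiterpene lactones taste bitter to humans, was measured.

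The largest differences of all were in genes that varied most between mice of one diet. Alpha-defensins are the antimicrobial peptides of Paneth cells, which belong to the small intestine and are scarce in the large bowel. Defa1 was 6.99, 6.73 and 11.35 in the CGA mice and 7.68, 12.99 and 14.47 in the STL mice, with Ctr2 at 13.36 and 14.92. The groups overlapped: STL 1 lay with CGA 1 and CGA 2, CGA 3 between, and STL 2 and STL 3 with Ctr2. The difference of 3.35 had a standard error of 2.68. All 10 measured genes of the Paneth list had a higher STL mean (median 3.52, range 0.33 to 4.23), and their median half-width was 4.91. The alpha-defensins are near-identical in sequence and do not count as separate measurements. The summed log2 level of the list ran from 65.5 to 92.5 in CGA and from 71.4 to 126.7 in STL, and no member was at 0.

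Small intestinal genes went partly with the defensins. Fabp6, the ileal bile acid binding protein, was 7.24, 7.02 and 9.58 under CGA and 7.60, 11.22 and 11.85 under STL, the same order of mice as Defa1. Apoa1, an apolipoprotein of chylomicrons and high-density lipoprotein, was 3.99, 3.81 and 6.47 under CGA and 4.29, 7.26 and 8.26 under STL. S100g, the calcium-binding protein calbindin-D9k, went the other way, at 11.89, 12.25 and 11.02 under CGA and 9.75, 10.30 and 11.76 under STL, a difference of -1.11 (standard error 0.49, unadjusted p = 0.0407) in which STL 3 overlapped CGA. The 7 measured genes of the small intestinal enterocyte list had a median of 0.03, and their summed log2 level ran from 62.7 to 68.1 in CGA and from 59.1 to 72.7 in STL. Mptx1, a mucosal pentraxin among the leading genes, was 4.90, 6.41 and 8.56 under CGA and 7.40, 9.51 and 10.46 under STL, high in the mice with high defensins. Whether the place along the gut from which the tissue was cut had a part in these levels was not tested.

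The 4 measured globin genes were high in STL 3 and, to a smaller extent, in STL 1. Hba-a1 was 11.45, 11.38 and 10.80 under CGA and 12.32, 11.23 and 14.70 under STL, and Hbb-bt was 11.08, 11.19 and 10.57 under CGA and 11.64, 10.74 and 14.57 under STL. STL 3 was the highest of the CGA, STL and Ctr2 mice for all 4 genes and STL 1 the next, while STL 2 lay below CGA 1 and CGA 2. The difference of Hba-a1 was 1.54 (standard error 0.62) and 0.56 (standard error 0.37) without STL 3, and that of Hbb-bt was 1.37 (standard error 0.76) and 0.25 (standard error 0.53) without it. The summed log2 level of the 4 genes was 43.4 to 45.1 in CGA, and 47.9, 43.4 and 56.8 in STL 1, STL 2 and STL 3. Blood left in the tissue was not tested.

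**Figure D5:**
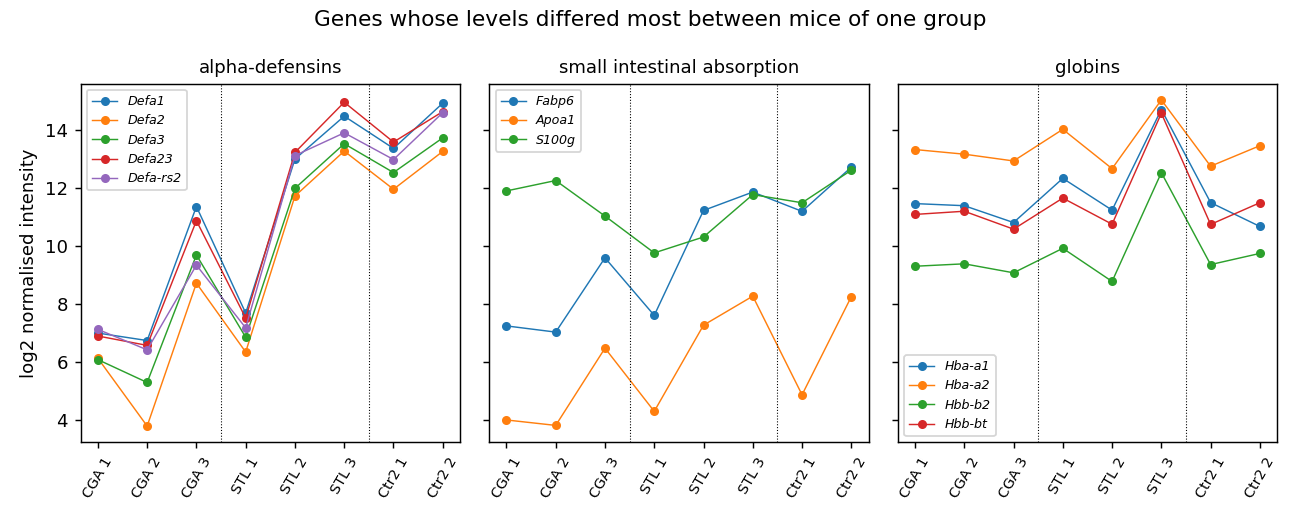
Lines join the log2 levels of 1 gene over the CGA, STL and Ctr2 mice on the x axis, separated by dotted lines, for 5 alpha-defensins (left), 3 genes of small intestinal absorption (middle) and 4 globins (right). Defa1 ran from 6.73 to 14.47 within the CGA and STL mice, Fabp6 followed the same order of mice while S100g did not, and the globins were highest in STL 3, followed by STL 1.

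Of the markers of other cell types, 0 genes passed the test. Of 12 smooth muscle genes 9 were higher in STL (median 0.08), led by Tpm2, a tropomyosin, at 0.50 (standard error 0.23, unadjusted p = 0.0498), with its other probe at 0.03, and Myl9, a myosin light chain, at 0.43 (standard error 0.23). Of 16 surface colonocyte and enterocyte genes 7 were higher (median -0.02). Mep1a, a brush border metalloprotease, was 11.97, 12.22 and 11.92 under CGA and 11.74, 11.80 and 11.62 under STL, a difference of -0.32 (standard error 0.16) without overlap. The 9 goblet cell genes had a median of -0.08, the 10 fibroblast and matrix genes -0.06, the 5 macrophage and dendritic cell genes -0.18 and the 3 B cell genes -0.06. The 5 fat cell genes had a median of -0.20, with 4 lower in STL, and both endothelial genes were lower (median -0.15). Of 8 hepatocyte genes 7 were lower (median -0.48), with a median half-width of the 95% interval of 2.30. Mup1, Mup2, Mup4, Mup5 and Mup20 of this list are major urinary proteins, alike in sequence, and do not count as separate measurements. Outside the list, Mup17 (0.26), Mup18 (0.56) and Mup19 (0.46) were higher in STL and Mup-ps16 (-0.48) was lower. The markers of tuft, mast and pancreatic acinar cells were not measured.

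Set against their shared control, both compounds also gave 0 called genes. STL against Ctr2 had 108 genes at an unadjusted p under 0.05 (2.86%), 87 of them higher in STL (2.3%), and CGA against Ctr2 had 131 (3.47%), 107 of them higher in CGA (2.83%). Since the same 2 Ctr2 arrays stand in both, the values are given side by side only. For Gpr157 they were 2.02 for STL and 0.50 for CGA, for Cst3 -0.69 and -0.15, for Max 0.29 and 0.97 and for Scd2 -0.27 and -0.99. The interferon-stimulated genes had medians of 0.12 for STL and 0.01 for CGA against Ctr2, and the ribosomal protein genes of -0.09 and -0.01.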

How the data were processed

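Caecum RNA of 16 mice was measured on 1-colour Agilent arrays. The authors deposited linear array intensities for 6214 rows, part of the array, and how the rows were chosen is not given in the sources used here. GenePix scanning and a quantile step stand in their methods and Agilent Feature Extraction in the labels, yet the deposited intensities have unequal array medians, so they were log2-transformed and quantile-normalized here. Control rows (227) and rows with no symbol (878) were left out, and 23 values at or below 0 were set to missing. No background columns were used. The precision rests on the few mice a group and on a spread estimated over all 6 caecum groups. Spots of a probe were averaged (median SD 0.17) and the probe of highest mean over the 16 arrays stood for its gene, which gave 3779 genes, with 110 row symbols updated through RefSeq accessions. The comparison was fitted with limma 3.58.1 in R 4.3.3 (lmFit and eBayes, 2-sided moderated test, all 6 caecum groups, Benjamini-Hochberg over all genes). The fit was tested on simulated data. Figures were made in matplotlib 3.10.9 (Python 3.11.15). The mice, gene lists and tests were chosen with earlier results of these data known. Named genes are the 12 with the largest moderated statistic in each direction and up to 4 of each list described, with members of the interferon and ribosomal lists, cell type markers and Y-linked genes. Genes named outside this rule are BC094435, Marchf1, Trip10, Trim26, Rn18s, Mup17, Mup18, Mup19 and Mup-ps16. Ileum and liver were not used.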

Additional observations from a re-analysis of the deposited data

How the results depend on the processing

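For STL against CGA, 0 genes passed under each of 17 alternatives, among them no normalization beyond log2, alignment at the 75th percentile, array quality weights and each array left out in turn, and the number at an unadjusted p under 0.05 ran from 12 (log2 only) to 309 (array quality weights). Leaving out genes near the scanner limit removed no tested gene. Against Ctr2, 0 genes passed with any STL or CGA array left out, and with Ctr2 replicate 1 left out 20 passed for STL and 22 for CGA, where the lone Ctr2 array is assumed to vary like the other groups, so these counts ran from 0 to 20 and from 0 to 22. The replicate numbers do not pair the mice: deviations from the group means correlated by 0.06, -0.03 and 0.15 between same-numbered STL and CGA mice. With the replicate number as a block, 0 genes passed for STL against CGA and for STL against Ctr2, and 2 for CGA against Ctr2. The named genes were mostly chosen for a large statistic in these same data, so a kept sign was likely from the start. No share of kept signs over all genes was computed. Of the 69 named genes followed, 67 kept their sign under all alternatives that could be fitted. The exceptions were Tgtp2, which ran from -0.27 to 0.033 with single arrays left out, and Ifitm2, which ran from -0.23 to 0.30 with single arrays left out and was -0.12 with array quality weights and -0.45 with the low arrays left out.

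The median of the interferon-stimulated genes stayed between 0.06 and 0.19, that of the large-subunit ribosomal proteins between -0.13 and -0.03 and that of the small-subunit ones between -0.11 and -0.06. Over all 40 lists with a measured gene, 30 medians changed sign under some alternative. The Paneth list ran from 1.51 with the low arrays left out to 5.60 without STL 1, and the globins from 0.13 with array quality weights to 2.06 without STL 2. Causes were not tested. No detection values were used, so dim genes could not be told from background.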

Other observations

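Some genes were low on 1 array only. Rn18s, the 18S ribosomal RNA, was 2.78 in Ctr2 2, 13.75 in Ctr2 1 and at least 11.17 in the CGA and STL mice. The genes that passed with Ctr2 replicate 1 left out were all lower in Ctr2 2 than under STL or CGA. Trip10, an adaptor of membrane trafficking, was 2.29 in CGA 3 and 9.86 and 9.48 in the other CGA mice, and Trim26, a ubiquitin ligase, was 4.31 in STL 3 and 9.24 and 9.17 in the other STL mice. Of all genes, 54 had an SD above 1 between mice of one diet within STL and CGA, where the median SD was 0.26. These genes were chosen after their values were seen.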
